A study of Rattus norvegicus with 7 samples.

Results

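The genes *Rprm* and *Eva1a* of the rat adrenal gland were followed across chronic stress. *Rprm* (ENSRNOG00000005109) encodes Reprimo and *Eva1a* (ENSRNOG00000007118) encodes a protein also known as TMEM166. They were chosen by their measured differences from the control group, since the study listed both as changed in each of its 2 most intense stress protocols. They are 2 of the 32754 genes in the deposited count table, and both were among the 13892 that reached 10 counts in each of the 7 libraries and were tested.

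Reprimo is a small, highly glycosylated protein that p53 induces, and it holds cells at the G2 phase of the cell cycle by keeping the Cdc2 and cyclin B1 complex inactive. Its promoter is known for CpG methylation and loss of expression in tumors. EVA1A is a membrane protein of the endoplasmic reticulum and lysosomes that promotes autophagosome formation, in part through ATG16L1, and its overexpression leads to autophagy and cell death. The adrenal gland holds a steroid-producing cortex, whose cells are renewed from its outer zone, and a catecholamine-producing medulla. The gland's size and output can respond to repeated stress, but the study found no change in adrenal weight under any of its protocols.

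RNA was taken from adrenal glands of male Sprague-Dawley rats. Control rats were housed socially, 3 to a cage, with weighing and routine care only. In chronic shock (CS), each rat was kept by itself in a shock box for the whole period, and shocks to the feet came unpredictably in timing and strength. The CS rats lived in another room than the other groups, so room and protocol cannot be told apart. Chronic variable stress (CVS) rats met changing physical, psychological and social stressors, among them predator cues, cold, restraint, swimming, disturbed light cycles, isolation and foot shock, so that the protocols overlapped in part. Unless a stressor changed it, CVS rats shared cages in groups of 2 or 3. Stress began on postnatal day 28 and lasted 3 weeks, and glands were collected on postnatal days 50 to 51. Control had 3 libraries, CVS 2 and CS 2. Every library came from RNA pooled over 8 to 9 animals, with no value for a single rat. The study describes the pools as independent. Library codes begin with DM6 (Control 1, CVS 1, CS 1), DM8 (Control 2, CVS 2) or DM10 (Control 3, CS 2), and the meaning of these prefixes is not given in the sources used here.

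Total counts per library ranged from 20095746 to 32242123. *Cyp11b2*, the aldosterone synthase of the outer cortex, lay between 1676 and 2590 normalized CPM (counts scaled to a common library size), and *Chgb*, a granule protein of chromaffin cells, between 1048 and 1563, so that cortex and medulla were both sampled. The other cortical and medullary markers could not be identified, because only 276 genes were named. In such bulk RNA, fewer cells of a type and less RNA per cell cannot be told apart.

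The sequence just before each gene's start is shown because *Rprm* is known for its CpG-rich promoter and because the genes differed from Control in opposite directions. Both were found in the RefSeq table of build GRCr8, whereas the reads had been counted on Rnor_6.0. Each window holds the 250 bases upstream of the start, 5′ to 3′ on the gene's own strand, with matches to the motifs searched in capitals. The *Rprm* window is chr3:58950036-58950285 (minus strand) and the *Eva1a* window is chr4:116151345-116151594 (plus strand).
Rprm: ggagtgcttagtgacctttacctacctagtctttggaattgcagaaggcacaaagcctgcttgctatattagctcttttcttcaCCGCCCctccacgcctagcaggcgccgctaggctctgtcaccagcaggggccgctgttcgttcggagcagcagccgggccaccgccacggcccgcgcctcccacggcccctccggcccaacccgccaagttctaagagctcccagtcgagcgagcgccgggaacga
Eva1a: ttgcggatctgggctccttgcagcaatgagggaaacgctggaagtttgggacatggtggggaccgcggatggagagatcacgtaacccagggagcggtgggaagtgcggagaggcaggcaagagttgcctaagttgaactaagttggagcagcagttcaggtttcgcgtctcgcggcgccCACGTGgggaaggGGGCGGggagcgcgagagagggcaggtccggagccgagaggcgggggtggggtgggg

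Both windows were rich in G and C. The GC content was 63.2% for *Rprm* and 64.4% for *Eva1a*, against a median of 51.2% over 33465 windows of the same length. *Rprm* held 20 CpG pairs, with an observed to expected ratio of 0.823, above 83.3% of all windows. *Eva1a* held 19, with a ratio of 0.887, above 87.8% of windows, and the median window had 0.383. A search on both strands covered 6 motifs that did not overlap each other in these windows. The GC box GGGCGG was met in both genes. In *Rprm* it lay on the opposite strand, 161 to 166 bases before the start, and in *Eva1a* it lay 52 to 57 bases before it. This motif was present in 30.5% of all windows. *Eva1a* also held the E-box CACGTG, 65 to 70 bases before its start, as did 5.59% of all windows. Neither window held CCAAT (34.0% of windows), TATAAA (12.9%), the glucocorticoid receptor half-site AGAACA (17.5%) or the p53 half-site consensus (6.64%). A match describes letters only, and these data hold no measurement of binding or methylation.

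Under stress *Rprm* was lower than in Control and *Eva1a* was higher, in every library of both protocols. *Rprm* stood at 29.8, 25.5 and 22.2 normalized CPM in the 3 Control libraries, from 1007, 621 and 519 counts. It stood at 12.2 and 10.4 in CVS (387 and 206 counts) and at 12.6 and 11.5 in CS (393 and 294 counts). The lowest Control library was thus above the highest stressed library, and the CVS and CS libraries overlapped.

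*Eva1a*, the autophagy gene, had the reverse order at a lower count. It stood at 3.52, 3.08 and 2.99 normalized CPM in Control, from 119, 75 and 70 counts. It stood at 6.78 and 8.41 in CVS (216 and 167 counts) and at 6.90 and 8.19 in CS (216 and 209 counts). No Control library reached the lowest stressed library, and both CS values lay between the 2 CVS values.

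**Figure D1:**
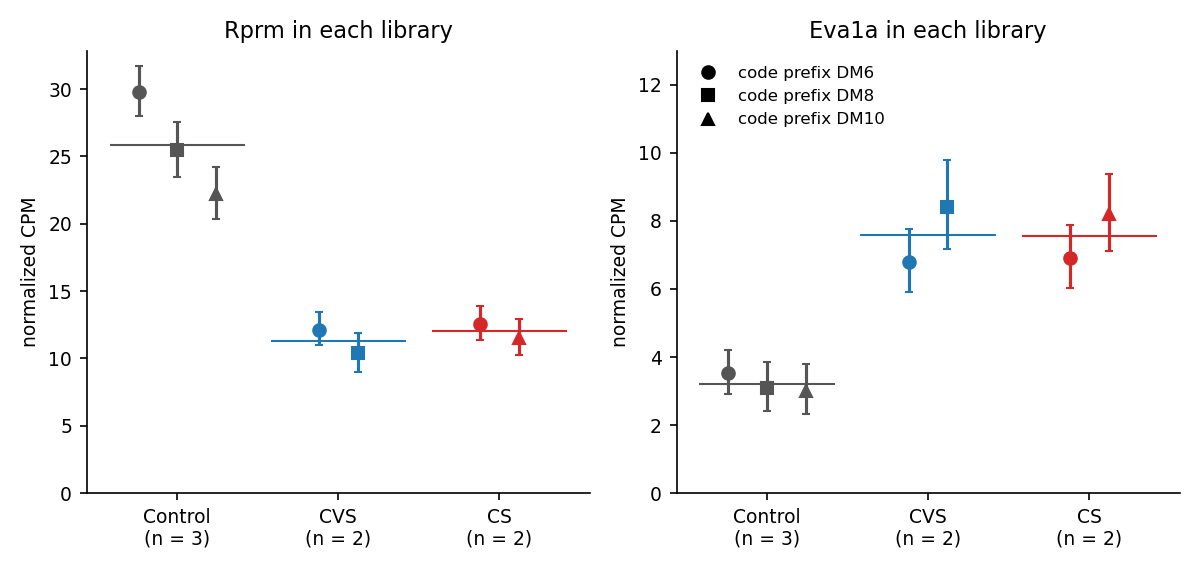
Normalized CPM of *Rprm* (left) and *Eva1a* (right) in each Control, CVS and CS library. Points are libraries, shaped by code prefix, vertical bars are exact 95% Poisson intervals of the counts, and horizontal lines are group means. The 4 stressed libraries lie below every Control library for *Rprm* and above every one for *Eva1a*.

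The group means gave the same order. *Rprm* averaged 25.8 ± 3.82 normalized CPM in Control (SD, n = 3), 12.0 ± 0.734 in CS (n = 2) and 11.3 ± 1.26 in CVS (n = 2). The *Eva1a* means were 3.20 ± 0.285 in Control, 7.55 ± 0.911 in CS and 7.60 ± 1.15 in CVS. For both genes CS and CVS were neighbours whose libraries overlapped, and Control stood apart.

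The spread between libraries was set beside that expected from counting alone. Among the Control libraries *Rprm* had a coefficient of variation of 14.8%, against 3.83% from counting alone, and the Poisson interval of Control 3 (20.3 to 24.2) lay wholly below that of Control 1. In the stressed groups *Rprm* varied by 11.2% in CVS and 6.10% in CS, with 6.02% and 5.44% from counting. *Eva1a* had 8.91% in Control against 10.9% from counting, so its Control libraries varied no more than their counts allow. In the stressed groups it varied by 15.1% in CVS and 12.1% in CS, with 7.34% and 6.87% from counting. The excess over counting was thus widest in Control for *Rprm* and in the stressed groups for *Eva1a*. These intervals cover counting error only.

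In CS against Control, *Rprm* was lower, with a fitted log2 difference of -1.10 ± 0.15 (SE), or 0.466 times the Control level. *Eva1a* was higher, with a log2 difference of 1.23 ± 0.18, or 2.35 times Control. In CVS against Control the log2 difference was -1.19 ± 0.15 for *Rprm* (0.437 times) and 1.24 ± 0.18 for *Eva1a* (2.36 times). Both comparisons used the same Control libraries, so they are not separate evidence. These differences chose the genes, so no p-value is given for them.

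An edgeR quasi-likelihood test at a Benjamini-Hochberg adjusted p under 0.05 was passed by 1 of the 2 genes, *Rprm*, in each comparison, as 0.209% of all genes tested did in CS and 0.0936% in CVS. DESeq2's Wald test at the same threshold called both genes in both comparisons, with 1.37% and 0.893% of all genes called. With the replicate number as a block edgeR also called both, with 3.01% and 5.88% called. All 4 stressed libraries were below all 3 Control libraries for *Rprm*, as for 3.62% of genes tested, and above them for *Eva1a*, as for 3.75%. Nothing is read from these counts, since the choice of the genes used the same contrasts.

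On the log2 scale the difference from Control spread more between library codes for *Eva1a* than for *Rprm*. *Eva1a* has fewer counts and so a larger counting error, and this spread was not tested against it. Within DM6, *Eva1a* was higher than Control by 0.97 (CS) and 0.94 (CVS) on the log2 scale. Within DM10 (CS) and DM8 (CVS) it was higher by 1.45 in each. The direction was thus shared by all 4 matched pairs. Both DM6 pairs gave the smaller value, but they share the library Control 1 and are not independent. For *Rprm* the matched log2 differences were -1.25 for CS and -1.29 for CVS within DM6, -0.94 for CS within DM10 and -1.29 for CVS within DM8.

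In each group the DM6 library had the highest *Rprm* level. For *Eva1a* the DM6 library was the highest in Control and the lower one in both stressed groups. With 1 library per group and code, this pattern was not tested.

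**Figure D2:**
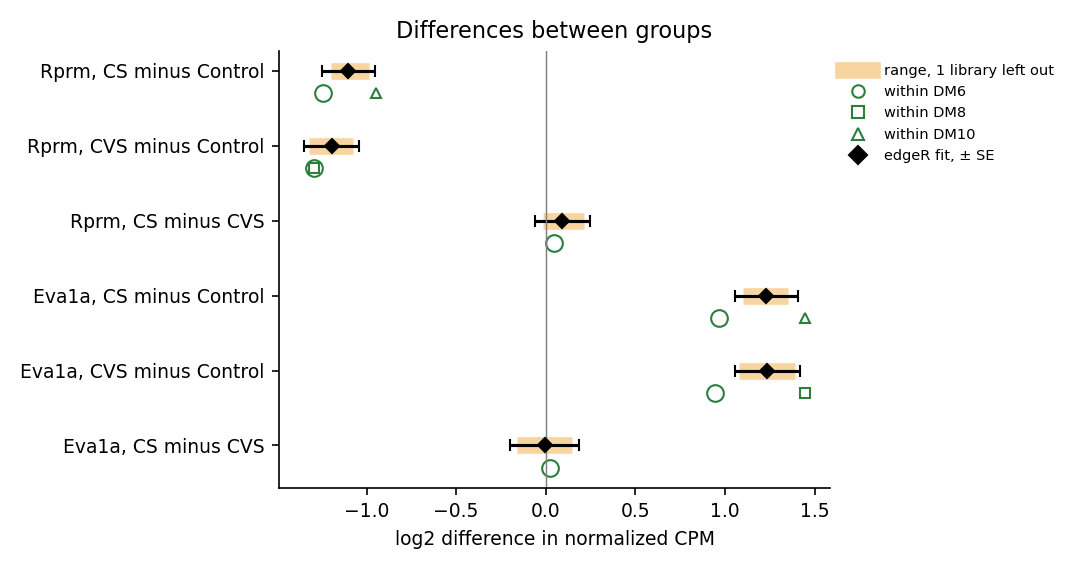
Log2 differences in normalized CPM between groups, for *Rprm* (upper 3 lines) and *Eva1a* (lower 3). Diamonds are fitted differences with SE, orange bands span the fits that leave out 1 library, and open symbols are differences within 1 code prefix. All values against Control keep their sign, and the CS minus CVS values lie close to 0.

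The contrast between the protocols was not itself part of the choice, but it is the difference of the pair of contrasts that were, and choosing genes listed in both protocols favors a small value. The test below is therefore not free of the choice. *Rprm* differed between CS and CVS by 0.091 ± 0.15 on the log2 scale (SE), with a 95% interval of -0.28 to 0.46 and an adjusted p of 0.885 (edgeR quasi-likelihood fit, Benjamini-Hochberg over 13892 genes). *Eva1a* differed by -0.0066 ± 0.19, with an interval of -0.47 to 0.45 and an adjusted p of 0.995 by the same edgeR test. Neither difference passed the threshold of 0.1. With 2 pools per group a difference as large as these bounds is not excluded, so equal levels are not shown.

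With the replicate number as a block the difference was 0.094 ± 0.14 for *Rprm* and -0.0074 ± 0.16 for *Eva1a*, still short of the threshold. Leaving out CVS replicate 2 turned the *Rprm* difference to -0.018 and the *Eva1a* difference to 0.15, and without CS replicate 1 the latter was 0.11. The threshold was met by 0 of 13892 genes with edgeR, while 7.34% of genes had an unadjusted p under 0.05, DESeq2 called 0.324% and the blocked edgeR fit 6.07%. Of the 44 genes that the study listed for both protocols, *Eva1a* had the 3rd smallest difference between CS and CVS in absolute size and *Rprm* the 16th, where the median of the 44 was 0.17 and that of all genes tested 0.14. That list was made on these libraries, so the ranks are a description.

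The ratio of *Rprm* to *Eva1a* counts within a library does not depend on how libraries are scaled. It was 8.46, 8.28 and 7.41 in the Control libraries, with *Rprm* far ahead in reads. It was 1.79 and 1.23 in CVS, and 1.82 and 1.41 in CS. The ratio compares libraries, and it does not give relative transcript numbers because gene lengths were not used. Since one gene was chosen as lower and the other as higher under stress, its separation between groups restates that choice.

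The Control ratios averaged 8.05 ± 0.560 (SD, n = 3), 5.32 times the CVS mean of 1.51 ± 0.395 (n = 2) and 4.99 times the CS mean of 1.61 ± 0.292 (n = 2). The lowest Control interval began at 5.77 (exact binomial, 95%) and the highest stressed interval ended at 2.16, where the intervals cover counting error only. Within the stressed groups the DM6 libraries had the higher ratio, and the intervals of CVS 1 (1.51 to 2.13) and CVS 2 (1.00 to 1.52) met at their edges.

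**Figure D3:**
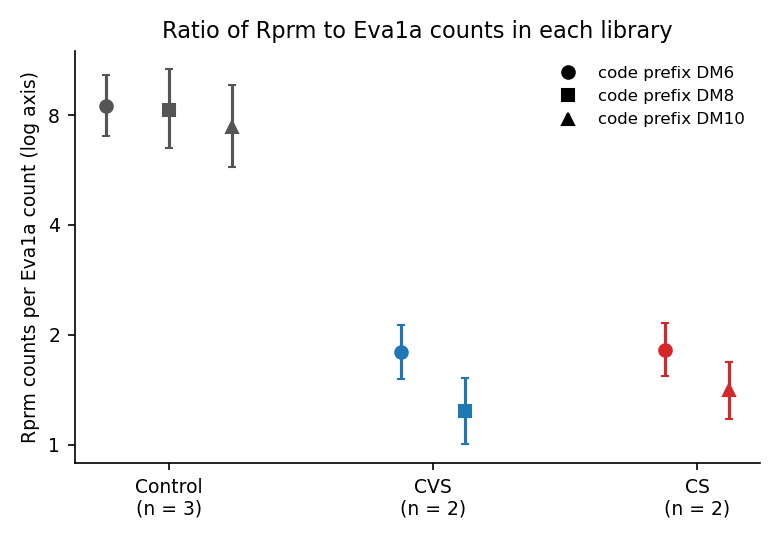
Counts of *Rprm* per count of *Eva1a* in each library, on a log axis, with exact 95% binomial intervals and symbols by code prefix. Control libraries lie between 7.41 and 8.46 and stressed libraries between 1.23 and 1.82.

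Between Control and the stressed libraries the patterns of both genes were close to mirror images. Likeness was measured as the root mean square difference of log2 normalized CPM, each gene centred on its own mean, over all 7 libraries. When the sign of *Rprm* was reversed, *Eva1a* was the nearest of 13891 other genes, at 0.19, where the median gene lay at 0.60. When *Eva1a* was reversed, *Rprm* ranked 3rd, after *Cd36*, a fatty acid transporter, and a gene without a name here. With each gene scaled to unit SD the ranks fell to 10th and 24th. Both genes were chosen for differences between the same groups, which sets most of this likeness. Among the Control libraries both genes moved the same way, not as mirror images. The centred log2 levels of Control 1, Control 2 and Control 3 were 0.87, 0.64 and 0.44 for *Rprm*. For *Eva1a* they were -0.57, -0.76 and -0.80.

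The genes nearest to *Rprm* in the same direction were ENSRNOG00000011400 at 0.11, *Cyp4f4* at 0.17, *Ak9* at 0.20, *Hoga1* at 0.21 and ENSRNOG00000016525 at 0.22. The nearest, ENSRNOG00000011400, had a low level, from 0.50 (CVS 2) to 1.30 (Control 1) normalized CPM. *Cyp4f4* encodes a cytochrome P450 that hydroxylates fatty acids and eicosanoids. It stood between 14.0 and 14.6 normalized CPM in Control, at 8.57 and 7.05 in CVS and at 7.48 and 7.33 in CS. *Ak9*, an adenylate kinase, averaged 5.22 in Control, 2.85 in CVS and 2.87 in CS. *Hoga1*, a mitochondrial aldolase of hydroxyproline breakdown, averaged 65.2 in Control, 36.3 in CVS and 40.6 in CS. In these 3 named genes each stressed library was below each Control library, as in *Rprm* and in 3.62% of all genes tested. They were picked for likeness to *Rprm* over the same libraries, so this follows from the choice.

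The genes nearest to *Eva1a* lay farther from it, between 0.22 and 0.27. The first was ENSRNOG00000034134, and the only one with a name was *Sgms2*, a sphingomyelin synthase, at 0.26. *Sgms2* stood between 6.20 and 6.48 normalized CPM in Control, at 11.6 and 9.92 in CVS and at 11.7 and 12.8 in CS. No gene came nearer to the *Eva1a* pattern than 0.22, which is more than the distance of *Rprm* with its sign reversed. Of each set of 5 genes, 5 were shared when DESeq2's size factors replaced TMM and 2 when each gene was scaled to unit SD.

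**Figure D4:**
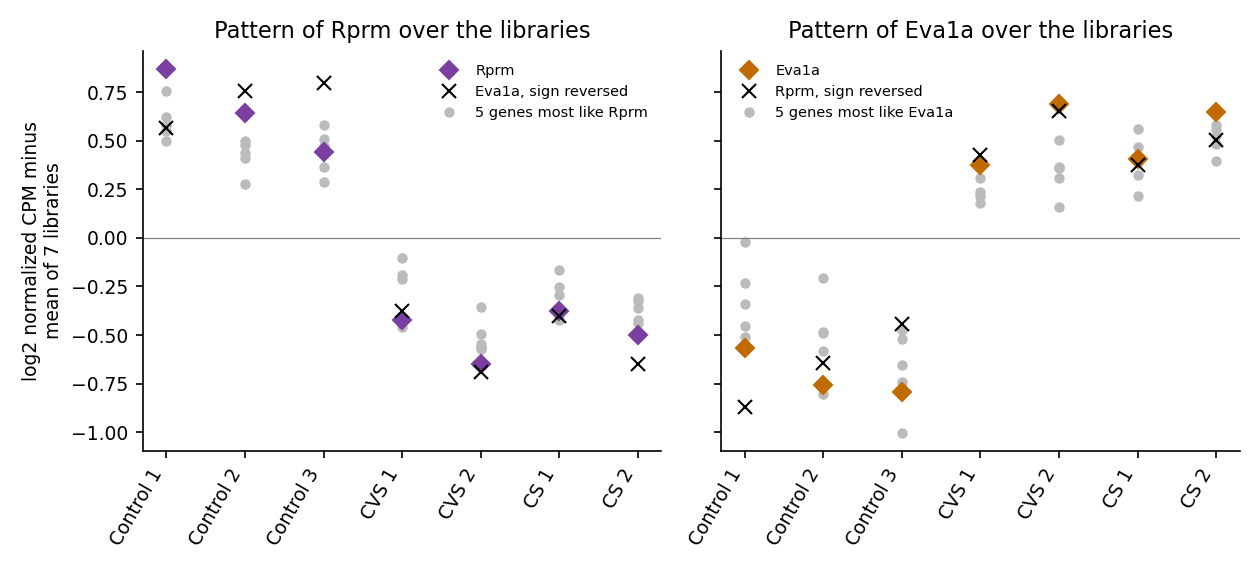
Log2 normalized CPM minus the mean of the 7 libraries for *Rprm* (left) and *Eva1a* (right), with the 5 genes most like each in grey and the other gene with its sign reversed as crosses. The crosses follow the diamonds from Control to the stressed libraries, with the widest gaps in Control 1 and Control 3. Among the Control libraries crosses and diamonds run in opposite order.

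The growth arrest, p53, cell cycle, autophagy, lysosome and cell death lists held 122 genes, and 6 of them (4.92%) could be named, so that the lists themselves could not be counted and only these 6 are described. Those 6 have names only because the study listed them as changed in CS or CVS on these libraries, and they are no sample of their pathways. Against Control, edgeR called 0 of the 6 in either comparison. An unadjusted p under 0.05 was reached by 3 in CS, where 8.44% of all genes tested reached it, and by 4 in CVS, where 6.45% did. DESeq2 called 2 in CS (1.37% of all genes) and 4 in CVS (0.893%). With the replicate block edgeR called 3 in CS (*Phlda3*, *Map1lc3a* and *Cdkn1c*, with 3.01% of all genes called) and 4 in CVS (*Wee1*, *Gas2*, *Gas1* and *Cdkn1c*, with 5.88%). Because the study's listing used the same contrasts, nothing is read from these counts. The paralogs *Rprml*, *Eva1b* and *Eva1c* were not analysed here.

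The named p53 and growth arrest genes (*Phlda3*, *Cdkn1c*, *Gas1* and *Gas2*) differed from Control by less than *Rprm* in size, in both protocols. The choice of *Rprm* used these contrasts and favors a larger size in both, so this order is a description only. *Phlda3*, a p53 target that restrains Akt, stood at 20.5, 22.3 and 22.8 normalized CPM in Control, at 29.0 and 22.5 in CVS and at 31.2 and 34.6 in CS. Its log2 difference from Control was 0.59 ± 0.10 in CS and 0.24 ± 0.13 in CVS, opposite in sign to *Rprm*, and CVS 2 lay within the Control range. *Cdkn1c*, the cyclin-dependent kinase inhibitor p57, averaged 104 ± 5.52 in Control, 140 ± 3.49 in CVS and 130 ± 8.06 in CS. Its log2 difference was 0.32 ± 0.09 in CS and 0.43 ± 0.08 in CVS, and no stressed library overlapped Control.

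*Gas1*, a membrane protein of growth-arrested cells, stood at 35.5, 26.2 and 28.4 normalized CPM in Control, at 15.3 and 21.9 in CVS and at 20.4 and 33.7 in CS. CVS lay below Control and CS overlapped it, with log2 differences of -0.71 ± 0.18 and -0.16 ± 0.22. *Gas2*, a cytoskeletal protein first found in such cells, had log2 differences of -0.67 ± 0.17 in CVS and -0.26 ± 0.14 in CS. The signs matched that of *Rprm*, with a smaller size in each protocol.

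*Wee1*, the kinase that holds Cdk1 inactive before mitosis, averaged 34.1 ± 1.20 normalized CPM in Control, 46.8 ± 1.62 in CVS and 33.7 ± 1.98 in CS. The CVS libraries lay above every Control library and the CS libraries spanned the Control range, with log2 differences of 0.46 ± 0.08 in CVS and -0.02 ± 0.09 in CS. *Map1lc3a*, an LC3 protein that coats autophagosomes, stood at 59.6, 72.6 and 70.7 in Control, at 51.1 and 74.6 in CVS and at 101 and 182 in CS. Its log2 difference was 1.07 ± 0.22 in CS and -0.11 ± 0.16 in CVS, and the CS pools differed widely from each other. *Eva1a*, the other autophagy gene, had log2 differences of 1.23 and 1.24 in CS and CVS.

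Between CS and CVS, none of the 6 genes passed an adjusted p under 0.1 with edgeR, though *Wee1* (log2 difference -0.48 ± 0.10) and *Map1lc3a* (1.17 ± 0.30) had an unadjusted p under 0.05, and DESeq2's Wald test called none, with 3 under 0.05 unadjusted. Over all genes tested, 7.34% were under 0.05 unadjusted with edgeR and 5.14% with DESeq2. With the replicate number as a block, edgeR called 4 of the 6, where it called 6.07% of all genes. The adjusted p of that edgeR fit was then 1.22e-05 for *Map1lc3a*, 0.0163 for *Wee1*, 0.0297 for *Gas1* and 0.0929 for *Gas2*. Without the block the edgeR test gave 0.638 for *Map1lc3a* and *Wee1*, 0.689 for *Gas1* and 0.676 for *Gas2*. The calls thus rest on the block. It pairs CVS 2 (DM8) with CS 2 (DM10), which do not share a code, and the pairing was taken from these same data. The blocked edgeR fit gave adjusted p of 0.765 for *Rprm* and 0.988 for *Eva1a*. The 6 genes have names because the study listed them for CS or CVS, and *Rprm* and *Eva1a* were chosen as listed for both. Nothing is read from setting them side by side, since these choices favor such a contrast.

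**Figure D5:**
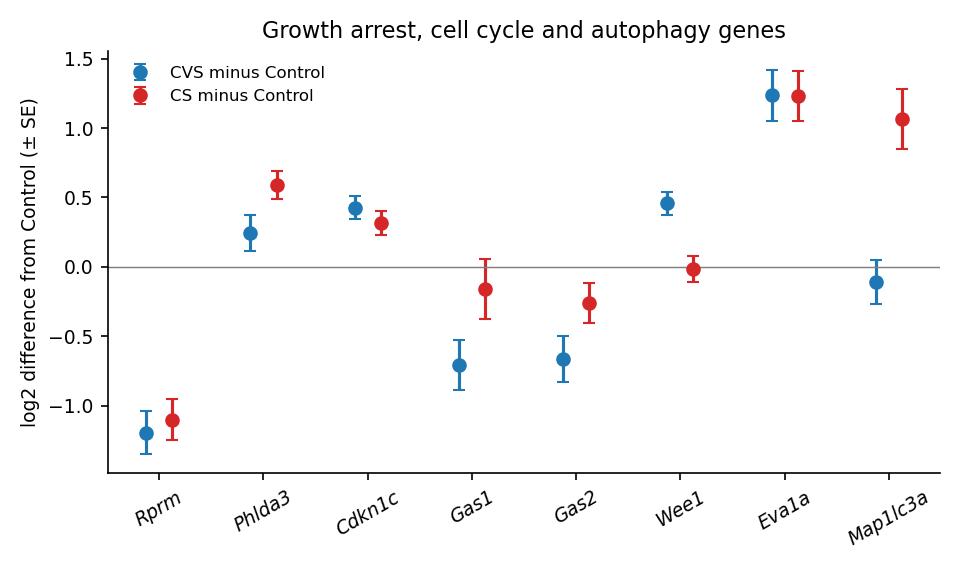
Log2 difference from Control (edgeR fit, bars are SE) in CVS and CS for *Rprm*, *Eva1a* and 6 other named genes. The 6 are those named in the p53, growth arrest, cell cycle and autophagy lists. *Rprm* lies at -1.10 in CS and -1.19 in CVS and *Eva1a* at 1.23 and 1.24, and *Cdkn1c* is also close in both, at 0.32 and 0.43. *Map1lc3a* lies at 1.07 and -0.11, and *Wee1* at -0.02 and 0.46.

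The named markers of cell types are given by group. They have names only because the study listed them as changed in CS or CVS on these libraries. Markers that did not change could not appear, so a difference between groups follows from that choice. Of 7 white adipocyte genes 6 could be named (*Adipoq*, *Fabp4*, *Plin1*, *Cidec*, *Retn* and *Cfd*), and their summed level ranged from 32.6 to 50.0 normalized CPM in Control, from 58.1 to 61.3 in CVS and from 88.8 to 103 in CS. The 3 groups did not overlap, and CS was the highest. *Mrc1*, a macrophage receptor and the only named one of 7 immune genes, ranged from 53.9 to 60.7 in Control, from 75.2 to 85.3 in CVS and from 64.9 to 65.8 in CS. *S100b*, 1 of 5 Schwann cell genes, ranged from 14.6 to 17.7, from 26.8 to 29.5 and from 17.9 to 19.8 in the same order. *Cyp11b2* ranged from 1676 to 2094 in Control and from 2397 to 2590 over the stressed libraries. *Chgb* ranged from 1092 to 1232 in Control, from 1048 to 1193 in CVS and from 1499 to 1563 in CS. The part of these cells in the *Rprm* and *Eva1a* differences was not tested.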

How the data were processed

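Poly(A) RNA of 7 pooled adrenal samples was sequenced as 50 base single reads from libraries that keep strand. The authors mapped reads to Rnor_6.0 with Rsubread, used featureCounts to count reads per Ensembl gene, and deposited raw counts. Tool versions, the annotation release and the strand setting are not given in the sources used here. How reads in overlapping genes were assigned is thus not known. Every per-sample column was matched to a sample by its label.

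Genes that reached 10 counts in each of the 7 libraries entered the tests, run in R 4.3.3 with edgeR 4.0.16 and limma 3.58.1. The steps were TMM, estimateDisp, glmQLFit and glmQLFTest with defaults, on the groups compared, with Benjamini-Hochberg adjustment over 13892 genes. Thresholds were 0.05 against Control and 0.1 for CS against CVS. Intervals are at 95%. Normalized CPM used the TMM-scaled library size, and log2 levels had 0.5 counts added. DESeq2 1.42.0 was an alternative. The edgeR fit was also run on simulated counts. Those libraries had no pairing, unlike the correlated same-numbered samples described below, so no conclusion is drawn from that run. Python 3.11.15, numpy 2.4.6, pandas 2.3.3, scipy 1.17.1 and matplotlib 3.10.9 were used for the rest.

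The genes, lists, motifs and tests were chosen with earlier results of these data known. Named were *Rprm*, *Eva1a*, the pathway list genes that could be identified, and for each of the pair the 5 genes nearest in pattern, with 4 unnamed genes at most given by identifier. Symbols came from the study's own tables of changed genes, which name 276 genes. All 6 pairs of same-numbered samples had correlated deviations (r from 0.21 to 0.47), and the numbers were taken to pair the samples from this correlation, not from the labels. In a group of 2 the deviations mirror each other, so the 6 values are not independent. Control 3 and CS 2 share a code but not a number, and their r of 0.19 was close to the 0.21 of Control 2 and CS 2. For CS 2 the correlation thus does not favor number over code.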

Additional observations from a re-analysis of the deposited data

How the results depend on the processing

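All fits kept the direction of *Rprm* and *Eva1a* against Control. Leaving out each replicate in turn gave log2 differences of -1.20 to -0.99 (CS) and -1.32 to -1.07 (CVS) for *Rprm*, and 1.10 to 1.35 (CS) and 1.08 to 1.39 (CVS) for *Eva1a*. Within a code prefix, an alternative chosen after seeing the data, *Eva1a* moved to 0.97 (DM6) and 1.45 (DM10) in CS and to 0.94 (DM6) and 1.45 (DM8) in CVS. With the replicate block the values against Control were -1.20 (CS) and -1.30 (CVS) for *Rprm* and 1.18 in both for *Eva1a*. For CS against CVS, where the adjusted p over all alternatives ran from 0.648 to 1.00 for *Rprm* and from 0.871 to 1.00 for *Eva1a*, the sign turned for *Rprm* without CVS replicate 2 (-0.018; leave-one-out range -0.018 to 0.21) and for *Eva1a* without CVS replicate 2 (0.15), without CS replicate 1 (0.11; range -0.16 to 0.15), with the code prefix as a term over all 7 libraries (0.019) and within DM6 (0.026). The cause was not tested. The code prefix alone could not be fitted for CS against CVS, as no residual degrees of freedom remain. Counts over the whole pathway lists were not run because too few of their genes have names, and only the 6 named ones were counted. Over all genes, edgeR called 1 to 83 in CS and 0 to 16 in CVS when 1 library was left out, and for CS against CVS 86 without CS replicate 1 and 0 without any other. *Eva1a* rests on 70 to 216 counts a library and *Rprm* on 206 to 1007.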
